A study of Mus musculus with 7 samples.

Results

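The genes described here encode the ligands and receptors of the 4 classical axon guidance systems, measured by RNA sequencing of left atrial tissue from adult mice of the outbred CD1 stock. They were chosen by gene symbol: every semaphorin, plexin, neuropilin, SLIT, ROBO, netrin, UNC5, Eph receptor and ephrin row of the count table was taken, which gave 69 of 24421 gene rows. The study has 4 libraries labelled FOG2 overexpression and 3 labelled wild type. The protocols name animals DTG and NTG, abbreviations they do not explain, and state that both were kept for 1 week off doxycycline. They do not say which promoter drives FOG2, of which sex the animals were or whether each library is a separate animal. The p-values below therefore cover only differences among libraries, some of which may be technical. FOG2, encoded by Zfpm2, is a zinc finger cofactor of GATA transcription factors, and the comparison asks how guidance transcripts in the atrium differed when it was overexpressed.

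Guidance molecules were named for steering growing axons, and the same proteins shape the heart and its vessels. Secreted class 3 semaphorins bind neuropilins, which signal through plexins, while membrane-bound semaphorins bind plexins directly. SLITs are secreted ligands of ROBO receptors, and netrin-1 acts through DCC, neogenin and UNC5 receptors. Ephrins are held on the cell surface and bind Eph receptor tyrosine kinases on neighbouring cells, the A class through a lipid anchor and the B class through a transmembrane domain. In the cardiovascular system, SEMA3C with NRP1 and PLXND1 acts in outflow tract development, ephrin-B2 and EphB4 mark arterial and venous endothelium, and SEMA3A patterns the sympathetic nerves of the heart.

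The libraries held 5562520 to 8655655 reads counted to genes. Before scaling, 1 read stood for 0.116 to 0.18 CPM, the counts of a gene per 1000000 gene reads of its library. The CPM of genes and gene sums below use totals scaled between libraries by TMM factors. Zfpm2 had 140, 222, 262 and 246 CPM in overexpression replicates 1 to 4, against 31.7, 30.9 and 29.4 CPM in wild type replicates 1 to 3, which fits the labels. Overexpression replicate 1 stood apart, with a Pearson correlation of 0.947 to 0.949 across genes to the other overexpression libraries, which correlated at 0.978 to 0.983 among themselves. Transcripts of 4 Y-linked genes summed to 545 CPM in overexpression replicate 1 and 557 CPM in wild type replicate 2, and to at most 0.578 CPM in the other 5 libraries. Cardiomyocyte markers summed to 71800 to 105000 CPM in overexpression and 117000 to 138000 CPM in wild type libraries. The 6 neuron markers summed to only 1.73 to 2.89 CPM in overexpression and 1.69 to 2.09 CPM in wild type libraries, with Th and Snap25 at 0 in all 7. The guidance transcripts were thus read in tissue where these 6 markers were nearly absent.

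A total of 4 members passed the test: Robo1 was higher and Epha4, Plxnc1 and Ntn1 were lower with FOG2 overexpression. Of the 69 members, 55 passed the filter on low counts and 14 did not. Among these 55, 1 rose, 3 fell and 51 did not pass (edgeR's quasi-likelihood method, with an adjusted p under 0.05 by the Benjamini-Hochberg rule over every tested gene). That is 7.27% of the tested members, beside 4.84% of all 13295 tested genes (1.55% higher and 3.29% lower). A total of 14 tested members (25.5%) had an unadjusted p under 0.05, beside 19.2% of all genes, and 11 (20%) had groups that did not overlap in CPM, beside 19.8%. These shares were close to those of all genes, and the description therefore turns on single members. The median log2 fold change, overexpression over wild type, was 0.11 for the tested members and 0.02 for all genes.

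Markers of several cell types moved with the groups. In whole atrium, fewer cells of a type and less RNA per cell cannot be told apart. Of 7 cardiomyocyte markers 2 fell (Ryr2 and Myl7) and 0 rose (median log2 fold change -0.40). Ttn and Myh6, which made up most of the cardiomyocyte sums given above, did not pass (edgeR adjusted p = 0.291 and 0.282). Smooth muscle and pericyte markers summed to 1220 to 1720 CPM in overexpression and 452 to 555 CPM in wild type libraries, with 2 of 8 higher (Acta2 and Cspg4) and 0 lower. Acta2 alone held 681 to 1030 CPM of these sums in overexpression and 15.3 to 36.2 CPM in wild type libraries. The median log2 fold change of the 8 was 1.27, and that of Abcc9 was -0.2. Fibroblast markers summed to 6170 to 7920 CPM in overexpression and 4800 to 5760 CPM in wild type libraries, with 0 of 7 called. Endothelial markers, the type of Robo4, Unc5b and Ephb4, summed to 1540 CPM in overexpression replicate 1, 1100 to 1240 CPM in the other overexpression libraries and 1240 to 1440 CPM in wild type, with 0 of 7 called and a median of -0.06. Schwann cell and glia markers summed to 95.3 to 112 CPM in overexpression and 70.8 to 81.9 CPM in wild type libraries, and 1 of the 4 tested rose (Mbp). Mbp alone held 64.2 to 80.2 CPM of these sums in overexpression and 49.8 to 55.9 CPM in wild type libraries. Sox10, of the same list, did not pass the filter and had means of 0.807 CPM in overexpression and 1.03 CPM in wild type. Activated fibroblast markers summed to 701 CPM in overexpression replicate 1, 84 to 133 CPM in the other overexpression libraries and 86.7 to 124 CPM in wild type. Epicardial markers summed to 555 CPM in overexpression replicate 1, 330 to 443 CPM in the other overexpression libraries and 327 to 363 CPM in wild type. Overexpression replicate 2 held 45.3 CPM of the ventricular marker Myl2, against 0, 1.39 and 1.28 CPM in replicates 1, 3 and 4 and at most 0.716 CPM in wild type libraries. Irx4, the other ventricular marker, had 0 counts in overexpression and 1 count in wild type libraries. Adipocyte markers were also highest in overexpression replicate 2, at 38.1 CPM, against 5.23 to 12.3 CPM in wild type libraries. The part of these shifts in the members' changes was not tested.

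The stretches of DNA before the start sites of 3 of the changed genes are shown because FOG2 acts through GATA factors, whose motif can be looked for there. They are the 250 bases upstream of 1 RefSeq start of each gene, from RefSeq (build GRCm38.p6), written 5′ to 3′ on the gene's strand, with CG dinucleotides in capitals. The windows are chr1:77515089-77515338 on the minus strand for Epha4, chr10:94944846-94945095 on the minus strand for Plxnc1 and chr16:72662899-72663148 on the plus strand for Robo1. The Robo1 window precedes a start that lies inside the span of the gene given below, not the outermost annotated start, and further starts of the gene are not shown.
Epha4: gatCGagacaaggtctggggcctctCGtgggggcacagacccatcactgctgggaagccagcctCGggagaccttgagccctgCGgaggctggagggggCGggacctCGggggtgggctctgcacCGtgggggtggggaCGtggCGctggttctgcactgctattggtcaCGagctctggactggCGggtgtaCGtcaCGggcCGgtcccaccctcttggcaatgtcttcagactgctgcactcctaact
Plxnc1: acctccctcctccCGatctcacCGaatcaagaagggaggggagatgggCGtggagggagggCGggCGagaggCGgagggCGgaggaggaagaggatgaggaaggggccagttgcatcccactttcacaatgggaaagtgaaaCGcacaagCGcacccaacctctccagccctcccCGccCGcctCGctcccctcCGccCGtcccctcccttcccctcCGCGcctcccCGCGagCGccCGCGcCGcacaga
Robo1: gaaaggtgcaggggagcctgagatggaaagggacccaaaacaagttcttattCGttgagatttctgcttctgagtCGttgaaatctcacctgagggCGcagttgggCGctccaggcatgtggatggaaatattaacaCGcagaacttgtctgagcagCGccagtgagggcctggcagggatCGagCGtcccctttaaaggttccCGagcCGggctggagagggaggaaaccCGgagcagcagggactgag

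The GATA motif was searched as AGATAA, as AGATAG, as TGATAA and as TGATAG, and the T-box core as AGGTGT, each on both strands and with overlapping matches counted. None of the 3 windows held either. Of 63 such windows at 48 tested members, 8 (12.7%) held the GATA motif and 6 (9.52%) the T-box core, beside 26.5% and 11.8% of all 32851 windows in the RefSeq table. The members' windows were richer in GC, with a median of 64.4% against 52.4% over all windows, and held a median of 15 CG dinucleotides against 6. The shown windows had 66.0% GC and 14 CG dinucleotides for Epha4, 68.8% and 22 for Plxnc1, and 56.0% and 11 for Robo1. A motif match describes the letters of a window and says nothing of binding, here or elsewhere in the genome.

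Levels of different genes were compared per length, in RPKM, the CPM divided by the kilobases of merged exon, a scale that depends on the annotated exons. In overexpression libraries Nrp1, a co-receptor for class 3 semaphorins and VEGF, was the most abundant member at 57.8 ± 11.3 RPKM (SD, n = 4; 50.0 to 74.2), followed by Plxnb2 at 31.3 ± 5.14 and Epha4 at 28.3 ± 6.44, whose ranges of 26.8 to 38.7 and 24.0 to 37.8 overlapped. In wild type libraries Epha4 led at 69.3 ± 0.395 RPKM (SD, n = 3; 69.0 to 69.7), above Nrp1 at 42.9 ± 2.69 (40.7 to 45.9), with no overlap between the 2 genes. Among the leading members of other families, Slit3 had 27.0 ± 4.09 RPKM in overexpression and 21.3 ± 4.63 RPKM in wild type libraries. In the same order, Sema3c had 25.1 ± 5.04 and 19.7 ± 3.58, Ephb4 20.5 ± 1.33 and 27.6 ± 4.23, and Ntn1 15.4 ± 1.06 and 20.3 ± 1.35. The plexins Plxnd1 (19.4 and 19.1) and Plxna4 (19.1 and 19.4) lay in the same range. Most families had 1 dominant member: Slit3 made up 95.2% of the SLIT total per length in overexpression and 93.7% in wild type libraries, Unc5b 94.7% and 95.6% of the UNC5 total, Nrp1 90.9% and 88.7% of the neuropilin total, and Ephb4 80.1% and 83.7% of the EphB total. Semaphorins and plexins were more evenly spread, with Sema3c at 27.6% and 23.9% of the semaphorin total and Plxnb2 at 32.3% and 24.2% of the plexin total.

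**Figure D1:**
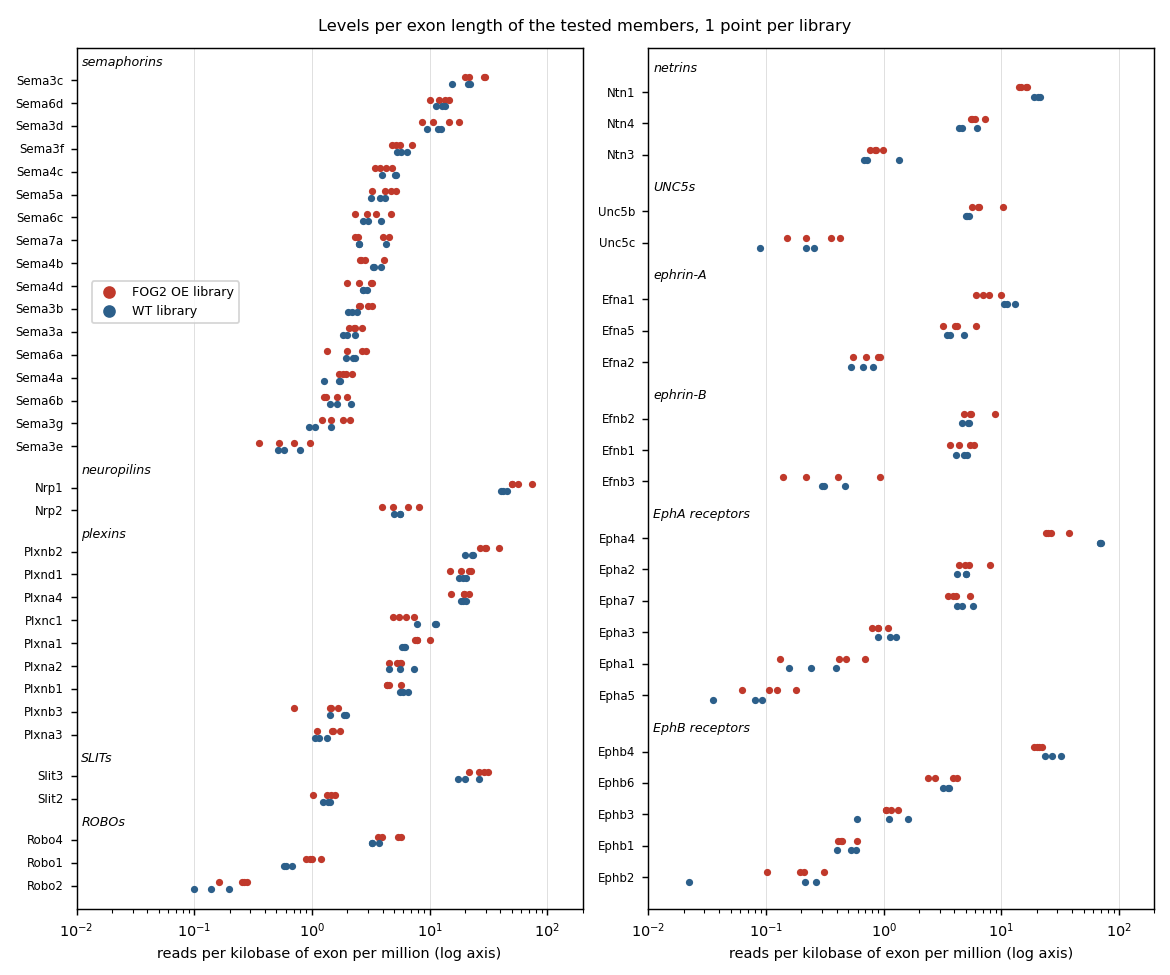
Level per exon length (RPKM: CPM per kilobase of merged exon, log axis) of the 55 tested members by family, with 1 point per library, FOG2 overexpression in red above wild type in blue. Epha4 lies at 24.0 to 37.8 in overexpression and 69.0 to 69.7 in wild type libraries, and Slit3, Unc5b, Nrp1 and Ephb4 lead their families.

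Epha4 showed the largest change of any tested member. It encodes an Eph receptor that, unlike most EphA receptors, binds ephrins of both classes, and its gene spans chr1:77367185-77515088 on the minus strand (mm10). Its level was 211, 193, 305 and 202 CPM in overexpression replicates 1 to 4, against 557, 556 and 562 CPM in wild type replicates 1 to 3. The wild type values were nearly identical, and the highest overexpression value, in replicate 3, was still far below them. Means were 228 ± 51.9 CPM (SD, n = 4) in overexpression and 558 ± 3.18 CPM (SD, n = 3) in wild type, a log2 fold change of -1.29 ± 0.16 (SE; edgeR adjusted p = 0.00227), or 2.45-fold lower with overexpression. Epha4 passed under all 15 alternative settings and left-out libraries, with log2 fold changes of -1.47 to -1.17.

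No other tested EphA receptor passed the test. Summed per length, the EphA family had 39.6 ± 6.42 RPKM in overexpression and 80.4 ± 0.786 RPKM in wild type libraries, while the family without Epha4 had 11.3 ± 1.09 and 11.1 ± 0.406 RPKM. Epha4 accordingly made up 70.9% of the family total in overexpression and 86.2% in wild type libraries. Epha2 had 26.4 ± 7.39 CPM in overexpression and 22.2 ± 2.13 CPM in wild type libraries (log2 fold change 0.26, 95% interval -0.2 to 0.71). Epha7 had 41.8 ± 8 and 48.3 ± 7.73 CPM (-0.21, interval -0.58 to 0.15) and Epha3 7.99 ± 1.01 and 9.54 ± 1.63 CPM (-0.26, interval -0.68 to 0.16). Epha1 and Epha5 were near the detection limit, with at most 2.74 and 3.03 CPM in any library and intervals spanning over 2 log2 units. Epha6, Epha8 and Epha10 did not pass the filter, and Epha6 had 0 counts in all 7 libraries, which allows up to 0.0555 CPM over all of them (3 counts, counting error only).

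Of the ephrins that bind EphA4, none passed the test. Efna1, the leading ephrin-A, had 14.3, 12.9, 18.3 and 11.2 CPM in overexpression replicates 1 to 4 and 19.3, 23.7 and 20.6 CPM in wild type replicates 1 to 3. Its groups did not overlap, and its log2 fold change was -0.59 ± 0.17 (adjusted p = 0.0964). It passed in 1 of 15 alternatives, the fit without overexpression replicate 3 (adjusted p = 0.0481), with values up to 0.338 in the others. Efna5 had 17.6 ± 4.83 CPM in overexpression and 16.0 ± 3.02 CPM in wild type libraries (0.14, interval -0.36 to 0.64). Efnb2, the arterial ephrin, had 60.9, 37.1, 32.9 and 37.9 CPM in overexpression replicates 1 to 4, against 32.1, 35.6 and 36.5 CPM in wild type. Replicate 1 alone was high: the log2 fold change of 0.29 ± 0.20 became 0.06 without it. Efnb1 differed little (16.7 ± 3.54 CPM in overexpression and 16.2 ± 1.78 CPM in wild type, interval -0.37 to 0.46), and Efnb3, Efna2, Efna3 and Efna4 had mean levels under 2 CPM in both groups.

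Among EphB receptors 0 of 5 passed. Ephb4, the venous partner of ephrin-B2, had 97.5, 93.6, 102 and 87.7 CPM in overexpression replicates 1 to 4, against 124, 149 and 110 CPM in wild type replicates 1 to 3. All overexpression values were below all wild type values, with a log2 fold change of -0.42 ± 0.12 (adjusted p = 0.0756). Ephb4 passed in 2 of 15 alternatives, with DESeq2 (adjusted p = 0.0254) and without overexpression replicate 1 (0.0468). In the others its adjusted p went up to 0.3. Its exons overlap Zan on the opposite strand, and the strand setting of the counting is not given in the sources used here. The 4 other EphB genes had log2 fold changes of -0.1 to 0.25, from Ephb1 to Ephb2, and the intervals of all 4 spanned 0. Ephb2 was uneven within wild type, at 3.34, 0.282 and 2.71 CPM.

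**Figure D2:**
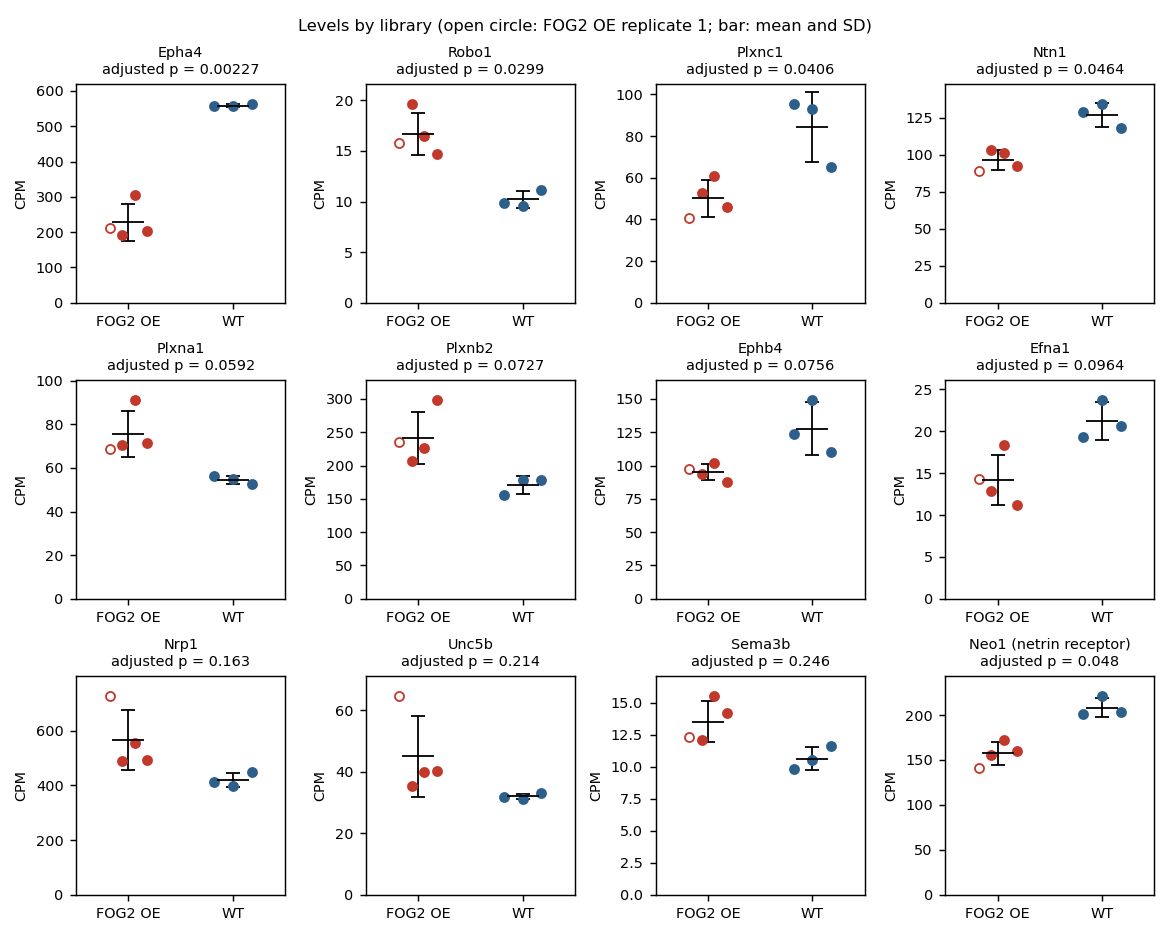
CPM in each library for the 4 members that passed the test (top row), the 7 further members with an unadjusted p under 0.05 and groups that do not overlap, and Neo1, with FOG2 overexpression left of wild type. Bars give the mean and SD, and the open circle is overexpression replicate 1, which is the highest overexpression library for Nrp1 and Unc5b and the lowest for Plxna1, Plxnc1, Ntn1 and Neo1.

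Semaphorins formed the largest ligand family, and none of them passed the test. Of 20 members, 17 were tested and 0 passed the edgeR test at an adjusted p under 0.05, with log2 fold changes from -0.23 for Sema4c to 0.52 for Sema3g and a median of 0.08. A single semaphorin, Sema3b, had an unadjusted p under 0.05. Its level was 12.3, 12.1, 15.5 and 14.2 CPM in overexpression replicates 1 to 4 and 9.78, 10.5 and 11.6 CPM in wild type replicates 1 to 3 (0.35 ± 0.15, adjusted p = 0.246). DESeq2 and limma-voom also called 0 semaphorins.

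The most abundant semaphorin, Sema3c, had 208, 213, 143 and 154 CPM in overexpression replicates 1 to 4 and 152, 111 and 159 CPM in wild type replicates 1 to 3. The groups overlapped (0.35 ± 0.18, adjusted p = 0.335), and without wild type replicate 2, the lowest library, the log2 fold change was 0.21. Sema6d, a membrane semaphorin that binds plexin A1 in chick heart development, had 133 ± 21.2 CPM in overexpression and 133 ± 11.8 CPM in wild type (interval -0.3 to 0.31). Sema3a, which patterns cardiac sympathetic nerves, had 32.5 ± 3.26 and 28.5 ± 3.28 CPM (0.19, interval -0.09 to 0.47). Sema3d and Sema3e were highest in overexpression replicate 1, at 152 and 8.89 CPM, and their log2 fold changes of 0.20 and 0.02 became 0.01 and -0.25 without it.

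Neuropilins carry the signal of the secreted semaphorins to plexins. Nrp1 had 726, 490, 554 and 494 CPM in overexpression replicates 1 to 4, against 411, 399 and 449 CPM in wild type replicates 1 to 3. All overexpression libraries exceeded wild type, but the difference did not pass (log2 fold change 0.43 ± 0.15, adjusted p = 0.163, and 0.0698 to 0.435 over the alternatives). Replicate 1 was the highest. Nrp2 had 97.2, 57.5, 78.1 and 47.1 CPM in overexpression replicates 1 to 4, on both sides of the wild type values of 66.7, 66.9 and 59.4 CPM (0.12, interval -0.39 to 0.64).

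Plexins are the receptors that transduce semaphorin signals through a GTPase-activating domain. Of 10 members, 9 were tested: 1 fell, 0 rose and 8 did not pass. Plxnc1, the receptor of SEMA7A, is encoded at chr10:94790866-94944835 on the minus strand (mm10). It had 40.7, 52.7, 61.1 and 46.1 CPM in overexpression replicates 1 to 4, against 95.3, 92.9 and 65.3 CPM in wild type replicates 1 to 3. Wild type replicate 3 came close to the highest overexpression library, yet the groups did not overlap. Its log2 fold change was -0.76 ± 0.17 (SE; edgeR adjusted p = 0.0406), or 1.69-fold lower with overexpression. The call ended without wild type replicate 1 (adjusted p = 0.165) or 2 (0.17), without overexpression replicate 2 (0.0834) or 4 (0.0981), and with library totals in place of TMM scaling (0.0707), at log2 fold changes of -0.78 to -0.63. Exons of Plxnc1 overlap the annotated gene Gm48718 on the same strand. Its ligand Sema7a had 11 ± 3.66 CPM in overexpression and 10.2 ± 3.36 CPM in wild type libraries (0.11, interval -0.57 to 0.78).

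Plxna1 and Plxnb2 were the plexins with the smallest p among those with higher values. Plxna1, a receptor for class 3 semaphorins through neuropilins, had 68.5, 70.5, 91.0 and 71.3 CPM in overexpression replicates 1 to 4, against 56.4, 54.7 and 52.6 CPM in wild type replicates 1 to 3 (log2 fold change 0.46 ± 0.12, adjusted p = 0.0592). Plxnb2, a receptor for class 4 semaphorins, had 235, 207, 227 and 298 CPM, against 156, 179 and 178 CPM (0.50 ± 0.14, adjusted p = 0.0727). In both genes every overexpression library lay above every wild type library. Both passed with DESeq2 (adjusted p = 0.0191 for Plxna1 and 0.0177 for Plxnb2) and with library totals only (0.0255 and 0.0182). They also passed without overexpression replicate 1 (0.0196 and 0.0426). That made 3 of 15 alternatives for each gene, with adjusted p up to 0.209 for Plxna1 and 0.267 for Plxnb2 in the others. Exons of Plxna1 overlap Gm26811 on the opposite strand.

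Plxnb1, a receptor of SEMA4D, had 45.6 ± 6.45 CPM in overexpression and 58.1 ± 4.60 CPM in wild type libraries, with groups that overlapped (-0.35 ± 0.12, adjusted p = 0.155). Plxnd1, the endothelial receptor of SEMA3E, had 142 ± 24.9 and 139 ± 9.12 CPM (0.02, interval -0.3 to 0.34). Plxna4 had 269 ± 38.5 and 274 ± 11.4 CPM (-0.03, interval -0.31 to 0.26). The row Plxna4os1, an antisense transcript of the Plxna4 locus that the symbol rule also takes, held 17 reads over all libraries. Per length, the whole plexin family summed to 97.1 ± 5.66 RPKM in overexpression and 91.8 ± 4.31 RPKM in wild type libraries.

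**Figure D3:**
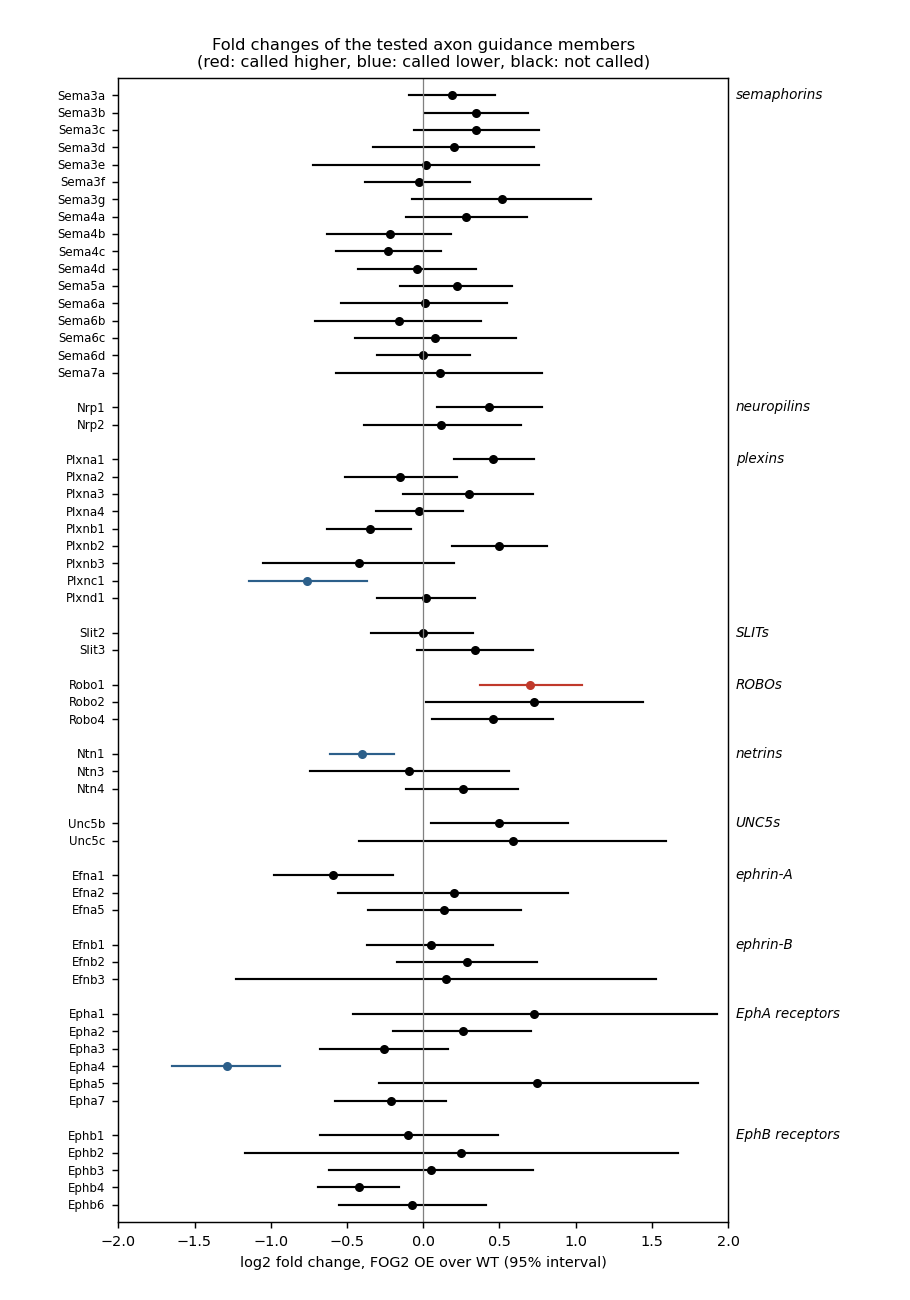
Log2 fold change, FOG2 overexpression over wild type, of the 55 tested members with 95% intervals, by family. Robo1 (0.70) is the member called higher, in red, and Epha4 (-1.29), Plxnc1 (-0.76) and Ntn1 (-0.40) are those called lower, in blue, while 46 of the 55 estimates lie within 0.5 of zero.

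Robo1, a receptor of the SLITs, was the member called higher. The gene spans chr16:72308306-73046095 on the plus strand (mm10). Its level was 15.8, 19.6, 16.5 and 14.7 CPM in overexpression replicates 1 to 4, against 9.9, 9.6 and 11.1 CPM in wild type replicates 1 to 3, and each overexpression library was above all wild type ones. The highest value was in replicate 2, the library with the high Myl2 and adipocyte marker levels. Means were 16.7 ± 2.14 CPM (SD, n = 4) and 10.2 ± 0.784 CPM (SD, n = 3), a log2 fold change of 0.70 ± 0.15 (SE; edgeR adjusted p = 0.0299), or 1.63-fold higher. Per length it stayed a weakly expressed gene, at 1.01 ± 0.129 RPKM in overexpression and 0.617 ± 0.0475 RPKM in wild type. Leaving out any one wild type library ended this call (adjusted p 0.133, 0.139 and 0.0635 for replicates 1, 2 and 3), as did leaving out overexpression replicate 2 (0.0702) or 3 (0.0697), at log2 fold changes of 0.62 to 0.77.

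The other tested ROBO genes had positive fold changes that did not pass. Robo4, an endothelial receptor and the most abundant of the family, had 30.1, 21.1, 28.4 and 19.4 CPM in overexpression replicates 1 to 4 and 17.1, 19.9 and 17.1 CPM in wild type replicates 1 to 3 (0.46 ± 0.18, adjusted p = 0.199). Its groups overlapped by a small margin. Robo2 had 4.09 ± 0.889 CPM in overexpression and 2.46 ± 0.828 CPM in wild type (0.73 ± 0.31, adjusted p = 0.246). Robo3, which has a role in midline crossing of axons, had 1 count in all.

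The SLIT ligands did not pass. Slit3 had 131, 159, 175 and 189 CPM in overexpression replicates 1 to 4 and 122, 160 and 105 CPM in wild type replicates 1 to 3 (0.34 ± 0.17, adjusted p = 0.318). Wild type replicate 2 lay within the overexpression range, and the log2 fold change was 0.52 without it and 0.21 without wild type replicate 3. Slit2 had 34.2 ± 5.93 CPM in overexpression and 34.1 ± 2.37 CPM in wild type libraries (interval -0.34 to 0.33), and Slit1 did not pass the filter, with 11 counts.

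Ntn1, the secreted ligand netrin-1, fell by a small margin with little spread. The gene spans chr11:68209364-68400823 on the minus strand (mm10). It had 89.2, 103, 101 and 92.6 CPM in overexpression replicates 1 to 4, against 129, 134 and 118 CPM in wild type replicates 1 to 3, with no overlap. The log2 fold change was -0.40 ± 0.09 (SE; edgeR adjusted p = 0.0464), or 1.32-fold lower. This call was the least stable of the 4: it held in 4 of 15 alternatives, and its adjusted p was 0.15 with library totals only, 0.0563 with no low-count filter, 0.0515 with limma-voom and 0.0592 with a covariate for the Y-linked level. Leaving out 1 library kept the call only where overexpression replicate 1 was left out (0.0342). Adjusted p was 0.175, 0.21 and 0.0725 without wild type replicates 1, 2 and 3, and 0.0679, 0.0794 and 0.112 without overexpression replicates 2, 3 and 4. The estimate stayed between -0.45 and -0.27. Ntn4, a laminin-related netrin of basement membranes, had 22.8 ± 2.90 CPM in overexpression and 19.1 ± 3.77 CPM in wild type (0.26, interval -0.11 to 0.62). Ntn3 had under 7 CPM in every library.

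Of the netrin receptors among the members, Unc5b, an endothelial one, had 64.6, 35.5, 40.0 and 40.3 CPM in overexpression replicates 1 to 4, against 31.8, 31.2 and 33.0 CPM in wild type replicates 1 to 3. The groups did not overlap, but replicate 1 lay far above the rest. The log2 fold change of 0.50 ± 0.20 (adjusted p = 0.214) became 0.27 without replicate 1 (adjusted p = 0.145). Unc5c had 5.51 ± 2.41 and 3.59 ± 1.68 CPM (interval -0.42 to 1.59), and Unc5a and Unc5d had 12 and 7 counts over all libraries.

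Neo1, which encodes the netrin and RGM receptor neogenin and belongs to a list of 69 co-receptors and effectors of guidance signalling, was also lower. It had 141, 156, 172 and 160 CPM in overexpression replicates 1 to 4, against 201, 221 and 203 CPM in wild type replicates 1 to 3 (-0.41 ± 0.10, adjusted p = 0.048). Like Ntn1, it passed in 4 of 15 alternatives (adjusted p 0.00337 to 0.215). It failed in every fit without 1 library except that without overexpression replicate 1. Dcc, the other classical netrin receptor, had 1 count in overexpression and 0 counts in wild type libraries.

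Of that list, 64 genes were tested: 4 rose, 1 fell and 59 did not pass, 7.81% called beside 4.84% of all genes, with a median log2 fold change of 0.18. Kalrn, a guanine nucleotide exchange factor for small GTPases, had 68.2, 77.0, 111 and 106 CPM in overexpression replicates 1 to 4, against 41.7, 43.2 and 39.7 CPM in wild type (1.12 ± 0.18, adjusted p = 0.00813), and passed under all 15 alternatives. Dpysl3, a collapsin response mediator of the family that relays semaphorin signals, had 260, 201, 239 and 232 CPM, against 140, 146 and 156 CPM (0.66 ± 0.11, adjusted p = 0.00988). Among the fits without 1 library, it did not pass without wild type replicate 1 (0.0643) or 2 (0.0616). In both genes the groups were well apart.

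Rnd1, a small GTPase that binds the cytoplasmic part of plexins, had 16.4, 5.05, 5.91 and 8.38 CPM in overexpression replicates 1 to 4, against 2.15, 2.26 and 2.34 CPM in wild type (2 ± 0.43, adjusted p = 0.0342). Replicate 1 was the highest, and without it the log2 fold change was 1.53 with adjusted p = 0.00658. Of the 7 fits without 1 library, 4 ended its call: that without overexpression replicate 4 (0.0631) and those without each of the 3 wild type libraries (0.142, 0.141 and 0.105 for replicates 1 to 3). It also ended with limma-voom (0.0792). Farp1, an exchange factor known to act with plexin A4 in chick spinal motor neurons, had 28.5, 35.7, 30.6 and 28.9 CPM, against 17.3, 20.8 and 22.8 CPM (0.61 ± 0.14, adjusted p = 0.0394). Its groups did not overlap, but among the fits without 1 library it passed only where overexpression replicate 1 was left out (0.0159), with adjusted p from 0.0576 to 0.163 in the other 6.

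**Figure D4:**
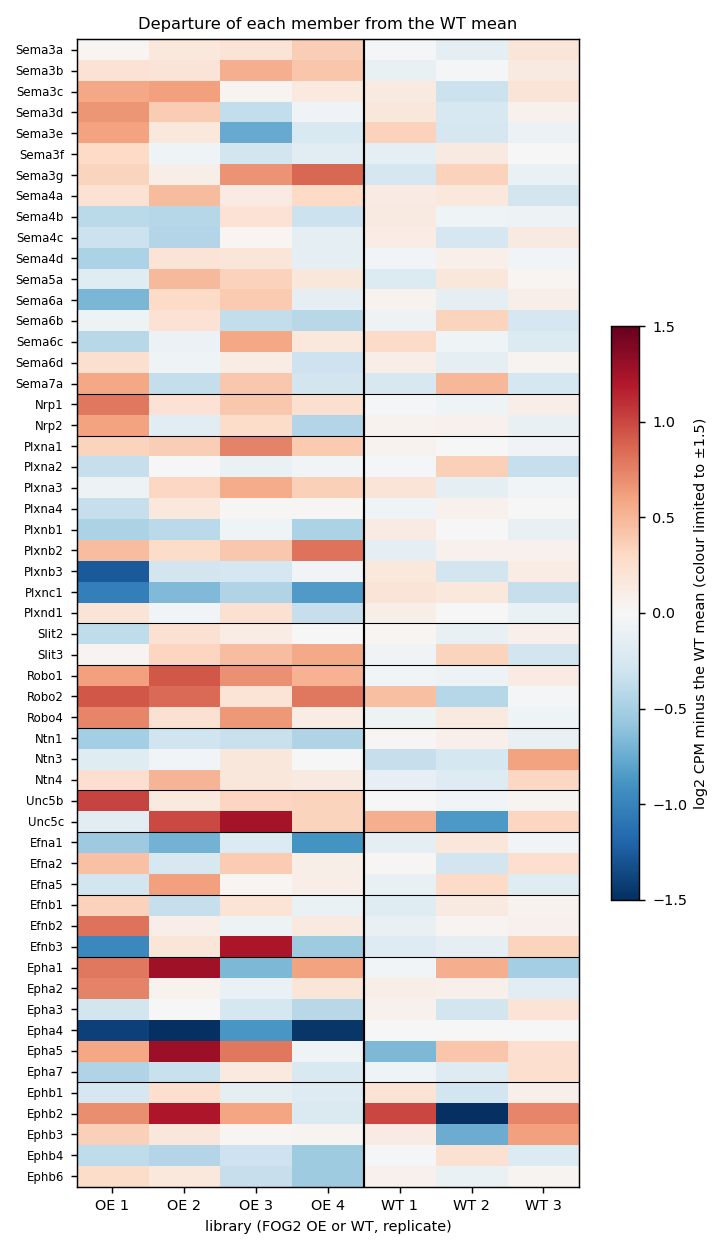
Log2 CPM of each tested member in each library minus the mean of the wild type libraries, with FOG2 overexpression libraries left of wild type and horizontal lines between families. Epha4 is lower in all 4 overexpression libraries (-0.87 to -1.53), while Unc5b, Efnb2, Nrp1 and Nrp2 lie highest in overexpression replicate 1.

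The libraries of the overexpression group did not move alike. Relative to the wild type mean, the median departure of the tested members was 0.19, 0.16, 0.17 and -0.04 log2 units in overexpression replicates 1 to 4, with 15, 9, 11 and 6 members more than 0.5 above it and 7, 3, 3 and 6 members more than 0.5 below it. Replicate 1 thus departed most in both directions, and replicate 4 equally often in each. Without overexpression replicate 1, 3 members were called higher (Robo1, Plxna1 and Plxnb2) and 4 lower (Epha4, Plxnc1, Ntn1 and Ephb4), while calls over all genes came to 1151 against 644 with all libraries. The sign of 10 of the 55 estimates turned in that fit, among them Nrp2 (-0.09), Sema7a (-0.09) and Sema3e (-0.25). As many, 10, turned without wild type replicate 2, and the fewest, 2, without overexpression replicate 4. With library totals only, 3 members were higher and 1 lower, and over all genes 444 were higher and 294 lower, against 206 and 438 with TMM. Under this scaling the median over all genes was 0.15 and that over the members 0.24, and 7 members had the other sign.

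Of the 14 members below the filter, none had more than 13 reads in any library. Their totals over all 7 libraries went from 0 for Epha6 to 45 for Sema4g, which had 32 reads in overexpression and 13 in wild type libraries. They were Efna3, Efna4, Epha6, Epha8, Epha10, Ntn5, Plxna4os1, Robo3, Sema4f, Sema4g, Sema5b, Slit1, Unc5a and Unc5d. In the edgeR fit without the filter, 0 of the 13 with any read passed and 0 had an unadjusted p under 0.05, so no difference was detectable in these at this depth.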

How the data were processed

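The authors deposited 1 table of whole-number counts per gene symbol for the 7 libraries. The submitters' processing notes list STAR, HTSeq 0.6.0, DESeq2 and mm10 without roles. The sources used here do not give the strand setting or the annotation. Per the labels' protocols, RNA came from homogenised left atria, and the labels name both polyA selection and ribosomal RNA removal. Rows naming no gene were left out; gene rows held 27.8% to 33.1% of the reads in the table, while 23.4% to 30.5% had no feature and 37.1% to 43.4% aligned to several places, so near-identical copies lose reads.

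R 4.3.3 with edgeR 4.0.16 was used: low counts were removed by filterByExpr (minimum count 10, minimum total 15), TMM factors were applied, and groups were compared by the robust two-sided quasi-likelihood F test with no covariate. Benjamini-Hochberg adjustment covered the 13295 genes tested; calls needed an adjusted p under 0.05. SE was obtained by dividing the size of the log2 fold change by the square root of F, and 95% intervals use the test's degrees of freedom. CPM use TMM-scaled totals. Exon lengths and mm10 positions came from GENCODE M21 by symbol, which matched all 69 members. Alternatives were RLE scaling, library totals, no filter, DESeq2 1.42.0, limma-voom (limma 3.58.1), non-robust dispersions, replicate number as a block, the Y-linked level (Ddx3y, Uty, Kdm5d, Eif2s3y) as a covariate and each library left out. The fit was also run on simulated data, with changes larger than most of those described here, and the outcome is not given.

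Members and lists were chosen with earlier results of these data known. Named are members past the threshold, members with an unadjusted p under 0.05 and no overlap, each family's leading member per length, the listed effectors past the threshold and, chosen after their values were seen, partners of these and the ends of family ranges.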

Additional observations from a re-analysis of the deposited data

Results flagged for a closer look

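Among the 4 overexpression libraries, 5 of the 55 tested members had 1 library whose distance from its nearest neighbour took up more than 0.829 of the group's range (Dixon's critical value for 4 samples), where chance flags about 1 group in 20. In 4 of these the library was overexpression replicate 3, the shallowest: Epha4 at 305 CPM against 193 to 211 CPM in the others, Plxna1 at 91.0 CPM against 68.5 to 71.3, Plxnb1 at 55.1 CPM against 41.5 to 43.8, and Sema4b at 23.1 CPM against 14.6 to 15.8. The fifth was Unc5b in overexpression replicate 1, at 64.6 CPM against 35.5 to 40.3.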

How the results depend on the processing

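Epha4 and, among the listed effectors, Kalrn passed in all 15 alternatives, and the 15 members and 5 effectors selected by rule kept their direction in each. With all libraries 1 member was higher and 3 lower, 4 and 1 listed effectors were higher and lower, and 644 genes were called. Members came to 3 higher with library totals only, 3 with DESeq2 and 0 with the replicate block, and to 1 lower with library totals only and 1 with the replicate block. Effectors higher were 7 with library totals, 8 with DESeq2 and 1 with the replicate block, and effectors lower 0 with library totals, no low-count filter, limma-voom, the replicate block or the Y-linked covariate. All genes called were 1110 with DESeq2 and 382 with the replicate block, a block that ended every member call but Epha4 (edgeR adjusted p = 0.0813 for Robo1, 0.153 for Plxnc1 and 0.172 for Ntn1) and every effector call but Kalrn (0.0509 for Dpysl3, 0.0615 for Rnd1, 0.0765 for Farp1 and 0.143 for Neo1). Without 1 library, members higher went from 0 to 3, members lower from 1 to 4, effectors higher from 1 to 11, effectors lower from 0 to 1 and all genes from 256 (without wild type replicate 2) to 1151 (without overexpression replicate 1). The causes were not tested. Samples share only a replicate number: deviations from the group means correlated at 0.0789, 0.0136 and 0.072 in same-numbered pairs, and 4 of 6 samples correlated best with their own number. Overexpression replicate 4 has no wild type library of its number, so in the block fit it added nothing to the comparison. The block fit also had fewer degrees of freedom, so its lost calls do not by themselves show an effect of replicate number. The filter on low counts left 14 members out; the fit without it called Epha4, Plxnc1 and Robo1.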
